A study of Mus musculus with 2 samples.

Results

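The ADAM, MMP and serpin protease system was followed across macrophages of leukaemic bone marrow (hereafter marrow) and leukaemic spleen. Members were all genes whose deposited symbol begins with Adam plus a digit, Adamts, Mmp plus a digit, Timp plus a digit, or Serpin. They numbered 88 among the 16428 genes with a read in either library, and the 50 with 10 or more reads in at least 1 library are reported here. Those 50 are 13 ADAM, 10 ADAMTS or ADAMTS-like, 11 MMP, 2 TIMP and 14 serpin genes. The rule used names and reads, not the difference between tissues. Adam12, with 6 reads in bone marrow and 10 in spleen, was just inside the limit, and Mmp13 and Mmp17, each with 9 reads in marrow and 7 in spleen, were just outside it.

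Both libraries are RNA-seq of sorted cells labelled macrophages, 1 from bone marrow and 1 from spleen, taken on day 15 from C57BL/6J mice aged 6 to 8 weeks. The mice had received 500000 GFP-labelled MLL-AF9 leukaemia cells each, with no irradiation, and mice of this model died of acute myeloid leukaemia within 25 to 30 days. MLL-AF9 is a fusion oncogene used to model this leukaemia, and the leukaemia cells given to the mice of both libraries carried it. The sources used here give neither the sort gates nor the number of mice pooled per library, and healthy macrophages were not analysed here. There is no replicate in either tissue, so each difference is one between 2 libraries and carries no p-value. Intervals are exact 95% intervals that cover counting error only.

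ADAMs are membrane proteins that clip the outer parts of other surface proteins, and ADAMTS enzymes are their secreted relatives with thrombospondin repeats. Matrix metalloproteinases (MMPs) cut collagen, elastin and other matrix proteins, and TIMPs inhibit them. Serpins are suicide inhibitors that trap serine and cysteine proteases, some in the blood and tissue fluid and others inside the cell. Leukocytes store several of these enzymes in granules and carry matched serpins that protect their own cytoplasm.

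After scaling, the depth behind these values was 9405947 uniquely placed reads for marrow, against 8457857 for spleen. Of the 50 members, 40 reached 10 reads in marrow and 43 in spleen, with medians of 62 reads in marrow and 77.5 in spleen. The 88 genes together took 0.174% of the reads of the marrow library and 0.175% of those of the spleen library. All 14 macrophage markers had reads in both libraries, with a summed level of 649 CPM (the count scaled to library size and composition) in marrow and 1508 CPM in spleen, and 8 of them were at least 2-fold higher in spleen. The 11 markers of neutrophil precursors summed to 48066 CPM in marrow and 2184 CPM in spleen, each of them at least 2-fold higher in marrow. The 6 markers of stem and progenitor cells summed to 835 CPM in marrow and 160 CPM in spleen, with 5 higher in marrow and 1 within 2-fold. The 10 B cell markers summed to 459 CPM in marrow and 4828 CPM in spleen, and the 10 T cell markers to 188 CPM in marrow and 1521 CPM in spleen, each at least 2-fold higher in spleen. Neither library therefore holds transcripts of macrophages alone. In such bulk libraries, fewer cells of a type and less RNA per cell cannot be told apart.

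A difference of at least 2-fold on log2(CPM + 1) was called higher in 1 library, among genes that reached 1 CPM and 10 reads in either library. All 50 members met that floor. Of them, 12 (24%) were higher in marrow, where 14.1% of all 12970 measured genes were, 14 (28%) were higher in spleen, where 14.6% of all measured genes were, and 24 lay within 2-fold. The median log2 ratio of the members (marrow minus spleen) was -0.42, against 0.03 over all measured genes. The families divided. Among MMPs 6 of 11 were higher in marrow and 1 in spleen, and among ADAMs 1 of 13 was higher in marrow and 6 in spleen. Serpins went both ways, with 3 of 14 higher in marrow and 5 in spleen.

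**Figure D1:**
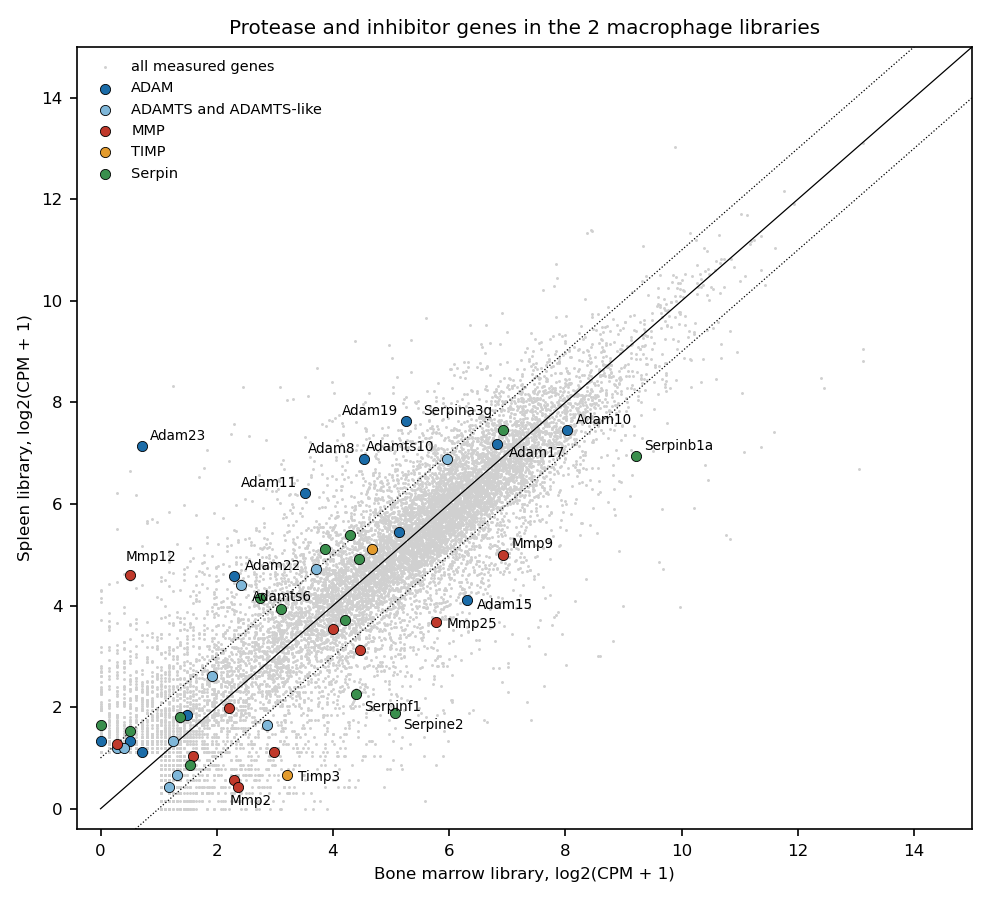
Level of each member in the marrow library (x axis) and the spleen library (y axis), both as log2(CPM + 1), over all 12970 measured genes in grey. The solid line marks equal levels and the dotted lines 2-fold; Adam23 stands farthest towards spleen, Serpinb1a and Mmp9 lie below the lines towards marrow, and Adam10 and Adam17 stay between them.

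Promoter windows are shown for 4 members from clusters of neighbouring genes, 1 pair with opposite directions and 1 pair with the same. Mmp8 and Mmp12 belong to a run of 10 consecutive MMP genes on chromosome 9, and Mmp8 was higher in marrow while Mmp12 was higher in spleen. Serpinb6b and Serpinb9 are adjacent on chromosome 13 and both were higher in spleen. The windows run from 250 bases before to 50 bases after a RefSeq transcript start (GRCm38.p6) and are written 5′ to 3′. Mmp12 has 2 windows because RefSeq gives it 2 starts. Mmp8 lies at chr9:7558179-7558478, the Mmp12 windows at chr9:7344147-7344446 and chr9:7347124-7347423, Serpinb6b at chr13:32965011-32965310 and Serpinb9 at chr13:33004291-33004590, all on the plus strand. Capitals mark matches, on either strand, to the letters TGANTCA (AP-1), GGGNNTTTC (kappaB), GAGGAAGT (PU.1), TTNNGNAA (C/EBP) and GAAANNGAA (interferon-stimulated response element).
Mmp8: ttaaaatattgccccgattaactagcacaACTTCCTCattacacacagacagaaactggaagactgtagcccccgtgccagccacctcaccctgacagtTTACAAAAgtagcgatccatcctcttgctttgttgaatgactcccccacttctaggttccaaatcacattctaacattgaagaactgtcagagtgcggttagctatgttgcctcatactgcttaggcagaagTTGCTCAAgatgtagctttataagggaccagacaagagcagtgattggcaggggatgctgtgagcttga
Mmp12, first start: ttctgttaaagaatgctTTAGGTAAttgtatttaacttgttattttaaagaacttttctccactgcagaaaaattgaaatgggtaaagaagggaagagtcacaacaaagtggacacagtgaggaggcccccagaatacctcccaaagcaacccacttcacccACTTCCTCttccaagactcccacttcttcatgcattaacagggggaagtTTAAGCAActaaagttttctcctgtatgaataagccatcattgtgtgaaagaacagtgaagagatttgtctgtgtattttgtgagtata
Mmp12, second start: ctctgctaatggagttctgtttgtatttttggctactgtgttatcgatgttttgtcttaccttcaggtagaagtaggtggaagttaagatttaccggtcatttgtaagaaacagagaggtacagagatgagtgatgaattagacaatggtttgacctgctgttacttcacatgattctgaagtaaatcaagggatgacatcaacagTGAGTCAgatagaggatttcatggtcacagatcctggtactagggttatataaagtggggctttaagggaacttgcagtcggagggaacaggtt
Serpinb6b: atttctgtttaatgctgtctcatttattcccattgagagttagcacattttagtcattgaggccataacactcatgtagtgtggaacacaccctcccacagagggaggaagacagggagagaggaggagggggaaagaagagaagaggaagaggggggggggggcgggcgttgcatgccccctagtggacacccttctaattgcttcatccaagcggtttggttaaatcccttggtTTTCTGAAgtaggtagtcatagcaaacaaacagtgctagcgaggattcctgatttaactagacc
Serpinb9: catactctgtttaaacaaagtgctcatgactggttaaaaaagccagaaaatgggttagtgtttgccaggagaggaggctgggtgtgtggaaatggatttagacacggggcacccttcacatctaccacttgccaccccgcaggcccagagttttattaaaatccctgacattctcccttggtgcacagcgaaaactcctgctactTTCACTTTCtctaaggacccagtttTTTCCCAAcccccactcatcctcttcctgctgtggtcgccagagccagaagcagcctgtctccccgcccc

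Among all 32851 promoter windows of the same length, the AP-1 letters were present in 7.81%, the kappaB letters in 4.36%, the PU.1 letters in 3.20%, the C/EBP letters in 40.7% and the interferon letters in 8.56%. Mmp8 and the first Mmp12 window each held a PU.1 match and 2 C/EBP matches, although the genes differed in direction. The second Mmp12 window held an AP-1 match, TGAGTCA. Serpinb6b held a C/EBP match, and Serpinb9 held a C/EBP match and an interferon match, TTCACTTTC on the printed strand. No match in these windows overlapped another, and the kappaB letters were in none of them. These are matches of letters, not sites shown to be bound.

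The general sheddases Adam10, Adam17 and Adam9 lay within 2-fold. Adam10, which cleaves Notch receptors and the low-affinity IgE receptor, was at 261 CPM in marrow (251 to 272) and 175 CPM in spleen (166 to 184), a ratio of 1.49 (1.40 to 1.59). Adam17, the enzyme that releases tumour necrosis factor from the cell surface, was at 112 CPM in marrow (105 to 119) and 144 CPM in spleen (136 to 152), 1.28-fold higher in spleen. Adam9, a broadly expressed sheddase, was at 34.3 CPM in marrow and 42.7 CPM in spleen. The counting intervals of these 3 ratios left out equal levels.

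Adam8 and Adam19 were higher in spleen by nearly the same factor. Adam8, an adhesion-associated sheddase of myeloid cells and B cells, was at 22.1 CPM in marrow and 117 CPM in spleen; the libraries differed by a factor of 5.27 (4.54 to 6.15). Adam19, which processes neuregulin and is found in dendritic cells, was at 37.3 CPM in marrow and 197 CPM in spleen, also 5.27-fold (4.69 to 5.93). Per length, Adam8 reached 7.12 RPKM (the count per length and library depth, as deposited) in marrow and 39.3 RPKM in spleen. Adam10 was at 55.5 RPKM in marrow and 38.9 RPKM in spleen, so Adam8 was below Adam10 in marrow and about level with it in spleen.

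Adam15 went the other way, the 1 ADAM of 13 called higher in marrow. Adam15, a membrane ADAM with a disintegrin domain, was at 78.0 CPM in marrow (72.5 to 83.9) and 16.2 CPM in spleen (13.6 to 19.1), a ratio of 4.82 (4.01 to 5.83). It made up 19.5% of the summed RPKM of ADAM genes in marrow and 2.75% in spleen. Adam12 and Adam28 were near the limit of detection. They had 6 and 4 reads in marrow, against 10 and 13 reads in spleen.

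Adam23, Adam11 and Adam22, which lack a protease active site, were all higher in spleen. Adam23, which acts as an adhesion protein and is best known as a receptor of LGI proteins in the brain, had 6 reads in marrow and 1190 in spleen, or 0.638 CPM in marrow and 141 CPM in spleen; the libraries differed by a factor of 221 (101 to 602). Its reads covered 3.68% of the gene's length in marrow and 92.8% in spleen, in the authors' deposited coverage column. Adam11 was at 10.5 CPM in marrow (8.55 to 12.8) and 72.9 CPM in spleen (67.3 to 78.9); the libraries differed by a factor of 6.93 (5.60 to 8.66). Adam22, another LGI receptor of neurons, was at 3.93 CPM in marrow and 22.8 CPM in spleen, 5.80-fold higher in spleen (4.06 to 8.49). The summed RPKM of the 3 genes was 2.52 in marrow and 38.8 in spleen.

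Both members known from the germ line were near the floor. Adam6b, a sperm gene that lies inside the immunoglobulin heavy chain locus, had 0 reads in marrow and 13 in spleen. Taking 3 reads as the most that a count of 0 allows, it was at least 4.82-fold higher in spleen, and the counting interval of the ratio began at 3.39. The call was lost with a pseudocount of 5, at -0.39 on the log2 scale, and with the deposited RPKM, at -0.76. Adam1a, a fertilin subunit, had 17 reads in marrow and 22 in spleen, and its interval included equal levels. B cell markers were higher in spleen too, with a median log2 ratio of -3.03, as were those of conventional dendritic cells (8 markers, summed at 122 CPM in marrow and 801 CPM in spleen) and of T cells. Their part in the ADAM differences was not tested.

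**Figure D2:**
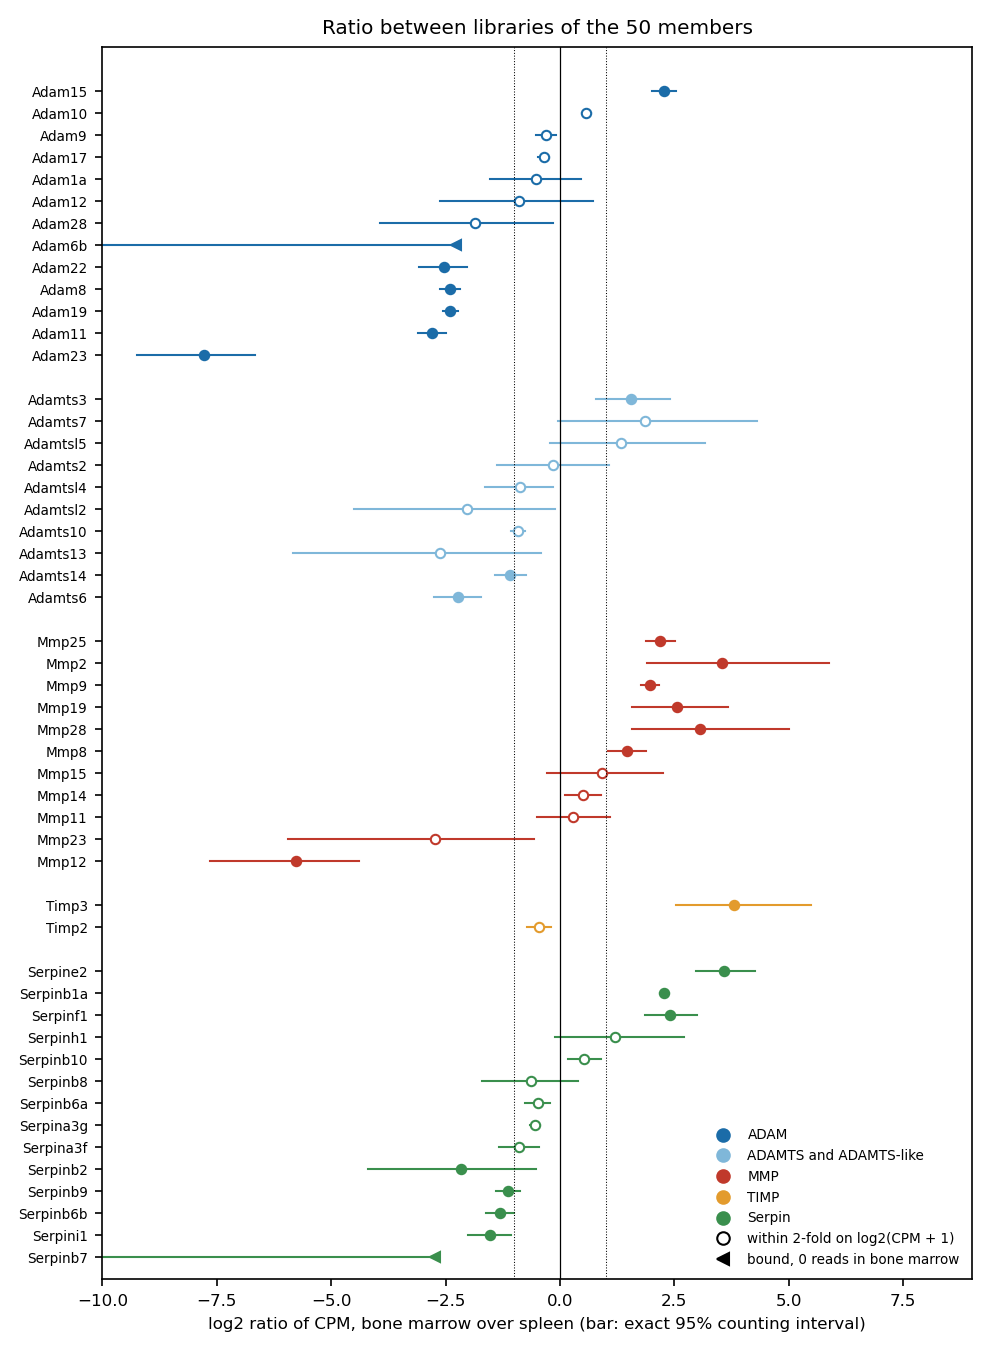
Ratio of CPM between marrow and spleen (x axis, log2) for each of the 50 members (rows), grouped by family. Points are ratios, bars are exact 95% counting intervals, filled points are called at 2-fold and triangles are bounds for genes with 0 reads in marrow; Adam23 and Mmp12 lie farthest to the left and Timp3, Serpine2 and Mmp2 farthest to the right.

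ADAMTS genes were low in both libraries apart from Adamts10. Adamts10, associated with fibrillin microfibrils, was at 61.8 CPM in marrow and 117 CPM in spleen, 1.89-fold higher in spleen (1.71 to 2.10) and just inside the 2-fold limit at -0.91 on the log2(CPM + 1) scale. It made up 70.3% of the summed RPKM of its family in marrow and 70.4% in spleen. Adamts6, a close relative, was at 4.36 CPM in marrow and 20.3 CPM in spleen, 4.67-fold higher in spleen (3.30 to 6.73).

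The procollagen N-proteinases, which trim fibrillar collagens before they assemble, divided. Adamts14 was at 12.01 CPM in marrow and 25.5 CPM in spleen, 2.13-fold higher in spleen (1.69 to 2.69). Adamts3 was at 6.27 CPM in marrow and 2.13 CPM in spleen, 2.95-fold higher in marrow (1.71 to 5.31). Both calls were lost with a pseudocount of 5, at a log2 ratio of -0.84 for Adamts14 and 0.66 for Adamts3, and with the deposited RPKM, at -0.89 for Adamts14 and 0.49 for Adamts3. Adamts2 had 13 reads in each library. Adamts13, the von Willebrand factor protease, had 2 reads in marrow and 11 in spleen, and Adamts7 had 12 in marrow and 3 in spleen. The 3 ADAMTS-like genes, which have no protease domain, all lay within 2-fold. Adamtsl4 was the highest of them at 26 reads in marrow and 43 in spleen.

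Mmp9, Mmp25 and Mmp8 were higher in marrow. Mmp9, the gelatinase stored in neutrophil granules and also made by macrophages, was at 121 CPM in marrow (114 to 128) and 31.1 CPM in spleen (27.5 to 35.1), a ratio of 3.88 (3.39 to 4.46). Mmp25, the leukolysin that a lipid anchor holds on neutrophil membranes, was at 54.0 CPM in marrow and 11.8 CPM in spleen, 4.57-fold (3.68 to 5.72). Mmp8, the neutrophil collagenase, was at 21.1 CPM in marrow and 7.69 CPM in spleen, 2.74-fold (2.06 to 3.68). These 3 genes had 1136, 508 and 198 reads in marrow, against 263, 100 and 65 in spleen. They were the MMPs with the most reads in marrow. The 11 neutrophil precursor markers had a median log2 ratio of 4.30 in the same direction, larger than the 1.92, 2.10 and 1.34 of Mmp9, Mmp25 and Mmp8. Of the 6 stem and progenitor markers, 5 were higher in marrow too. The part of either kind of cell in these MMP differences was not tested.

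Mmp12 was the 1 MMP called higher in spleen. Mmp12, the elastase of macrophages, had 4 reads in marrow and 196 in spleen, or 0.425 CPM in marrow and 23.2 CPM in spleen; the libraries differed by a factor of 54.5 (20.9 to 202). It made up 0.15% of the summed MMP RPKM in marrow and 20.7% in spleen. Macrophage markers had a median log2 ratio of -1.24, against -4.08 for Mmp12.

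Mmp2, Mmp19 and Mmp28 were low and higher in marrow. Mmp2, a gelatinase made mainly by stromal cells, had 39 reads in marrow and 3 in spleen, a ratio of 11.7 (3.72 to 59.1). Mmp19 had 65 reads in marrow and 10 in spleen, a ratio of 5.84 (2.98 to 12.8), and Mmp28, also called epilysin, 37 reads in marrow and 4 in spleen, a ratio of 8.32 (2.99 to 32.1). All 3 fell below the 2-fold rule with a pseudocount of 5. Mmp14, the membrane enzyme that activates pro-Mmp2, was within 2-fold at 15.0 CPM in marrow and 10.6 CPM in spleen, with 141 reads in marrow and 90 in spleen. Mmp11 and Mmp15 had 34 and 19 reads in marrow, against 25 and 9 in spleen, and their intervals included equal levels. Mmp23 had 2 reads in marrow and 12 in spleen, and at -0.996 was just short of the call. The 9 stromal and endothelial markers summed to 161 CPM in marrow and 190 CPM in spleen, of which the endothelial gene Pecam1 made up 110 CPM in marrow and 173 CPM in spleen. Of the 8 measured, 4 were higher in marrow and 1, Kdr, in spleen, where 14.1% and 14.6% of all measured genes were. The stromal markers Pdgfrb, Col1a2 and Col1a1 had 306, 44 and 37 reads in marrow, against 17, 2 and 3 in spleen, and Cxcl12 had 30 reads in marrow and 0 in spleen. Pdgfrb, Col1a2, Col1a1 and Cxcl12 moved in the same direction as Mmp2. Lepr, of the same marker list, leaned the other way while within 2-fold. It had 19 reads in marrow and 32 in spleen, 1.87-fold higher in spleen (1.03 to 3.50). Of its 5571 bases, these reads covered 252 in marrow and 161 in spleen. Genes of 2000 bases or more with only 18 reads covered a median of 764 bases in marrow and 733 in spleen. The Lepr counts thus came from a short part of the gene and are a weak measure of its transcript. The part of stromal cells in the Mmp2 difference was not tested.

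Summed over genes, TIMP transcripts were fewer per length than those of MMPs in both libraries. In spleen, however, Timp2 was about level with Mmp9, the highest MMP there, at 9.52 RPKM against 9.99 RPKM. Timp2, which both inhibits MMPs and helps Mmp14 to activate Mmp2, was at 24.6 CPM in marrow and 33.8 CPM in spleen, 1.38-fold higher in spleen (1.15 to 1.65). Timp3, a matrix-bound inhibitor that also blocks Adam17, had 78 reads in marrow and 5 in spleen, or 8.29 CPM in marrow and 0.591 CPM in spleen, a ratio of 14.03 (5.76 to 44.4). Timp1, with 2 reads in marrow and 1 in spleen, was too shallow to compare. The summed RPKM of TIMP genes was 8.56 in marrow and 9.78 in spleen, while that of MMP genes was 75.0 in marrow and 31.8 in spleen. Without Mmp9 the MMP sum was 37.9 RPKM in marrow and 21.8 RPKM in spleen.

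**Figure D3:**
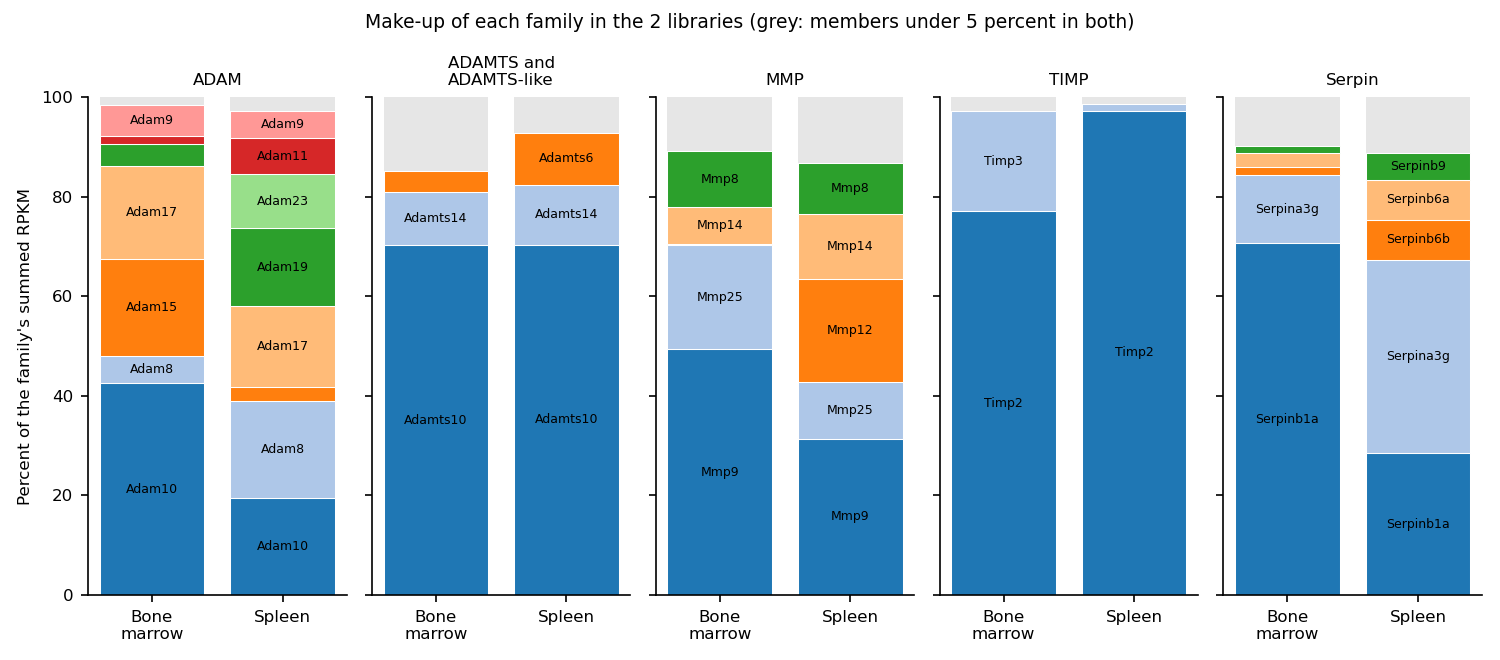
Share of each family's summed RPKM (y axis, percent) taken by its members in the marrow library (left bar) and the spleen library (right bar), with members under 5 percent in both in grey. Adam10 takes 42.6% of the ADAM sum in marrow and 19.4% in spleen, and Serpinb1a 70.6% of the serpin sum in marrow and 28.4% in spleen.

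Serpinb1a was the most abundant member of the whole set in marrow. Serpinb1a, an intracellular inhibitor of neutrophil elastase, proteinase 3 and cathepsin G, was at 592 CPM in marrow (576 to 608) and 122 CPM in spleen (115 to 130), a ratio of 4.84 (4.53 to 5.18). In RPKM it ranked 200th of the genes in marrow and 1157th in spleen. With it, the summed serpin RPKM was 424 in marrow and 228 in spleen, and without it 124 in marrow and 163 in spleen, so that the order of the tissues turned. Its targets were also higher in marrow, by more. Elane was at 1746 CPM in marrow and 41.1 CPM in spleen, Prtn3 at 1832 CPM in marrow and 38.7 CPM in spleen, and Ctsg at 821 CPM in marrow and 25.4 CPM in spleen, ratios of 42.4, 47.4 and 32.3. These proteases are themselves markers of neutrophil precursors, and 5 of the 6 stem and progenitor markers were higher in marrow too. The part of either kind of cell in the Serpinb1a difference was not tested.

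Serpina3g took the first place among serpins in spleen. Serpina3g, which inhibits lysosomal cathepsins in the cytosol of lymphocytes and macrophages, was at 120 CPM in marrow (113 to 128) and 175 CPM in spleen (167 to 185), 1.46-fold higher in spleen (1.35 to 1.58). It reached 57.9 RPKM in marrow and 88.5 RPKM in spleen. Serpina3f, its neighbour on chromosome 12, was at 7.65 CPM in marrow and 14.3 CPM in spleen, 1.87-fold higher in spleen. The cathepsins Ctsb and Ctsl were within 2-fold, at 510 and 25.2 CPM in marrow and 703 and 21.0 CPM in spleen. Serpina3 genes lie in a cluster of close copies, and since the deposited counts keep uniquely placed reads, their levels are uncertain.

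Of the 8 intracellular clade B serpins, Serpinb1a was the 1 higher in marrow, against 4 in spleen, and 3 stayed under a 2-fold difference. Over all measured genes 14.1% were higher in marrow and 14.6% in spleen, so the marrow count was near that share. With a pseudocount of 5, 3 of the 4 calls towards spleen were lost, those of Serpinb9 (-0.96 on the log2 scale), Serpinb7 (-0.51) and Serpinb2 (-0.35), and with the deposited RPKM that of Serpinb2 (-0.70). Serpinb9, the inhibitor of granzyme B, was at 18.7 CPM in marrow and 41.0 CPM in spleen, 2.19-fold higher in spleen (1.82 to 2.64). Gzmb itself, the granzyme B of cytotoxic lymphocytes, was at 24.1 CPM in marrow and 33.9 CPM in spleen, within 2-fold. Serpinb6b was at 13.5 CPM in marrow and 33.6 CPM in spleen, 2.49-fold higher in spleen (2.01 to 3.09), while Serpinb6a was within 2-fold at 20.9 CPM in marrow and 29.3 CPM in spleen. Serpinb1a, Serpinb6b, Serpinb9 and Serpinb6a all belong to 1 run of 16 neighbouring serpin genes on chromosome 13, and 1 of those 4 was higher in marrow and 2 in spleen. Counts of these close copies carry the same uncertainty as those of Serpina3 genes.

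The chromosome 1 cluster of clade B serpins was low. Serpinb10, also called bomapin and known from marrow cells, was its highest member at 17.5 CPM in marrow and 12.2 CPM in spleen, a ratio of 1.44 (1.12 to 1.86). Serpinb7, or megsin, had 0 reads in marrow and 18 in spleen, at least 6.67-fold higher in spleen against the floor of 3 reads, with a counting interval that began at 4.89. Serpinb2, an inhibitor of urokinase made by activated monocytes, had 4 reads in marrow and 16 in spleen; the libraries differed by a factor of 4.45 (1.43 to 18.3) that was just past the call at -1.02. Serpinb8 had 15 reads in marrow and 21 in spleen, and its interval included equal levels.

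Of 3 secreted serpins that act outside the cell, 2 were higher in marrow and 1 in spleen. Over all measured genes the shares were 14.1% for marrow and 14.6% for spleen, and 3 genes are too few to set against them. Serpine2, protease nexin 1, which inhibits thrombin and urokinase and is also stored in platelets, had 306 reads in marrow and 23 in spleen, or 32.5 CPM in marrow and 2.72 CPM in spleen, a ratio of 11.96 (7.83 to 19.2). Serpinf1, the pigment epithelium-derived factor that restrains vessel growth, was at 20.1 CPM in marrow and 3.78 CPM in spleen, a ratio of 5.31 (3.64 to 7.99). Serpini1, or neuroserpin, an inhibitor of tissue plasminogen activator, was at 5.74 CPM in marrow and 16.7 CPM in spleen, 2.90-fold higher in spleen (2.11 to 4.05). Serpinh1, a chaperone of collagen in the endoplasmic reticulum, had 18 reads in marrow and 7 in spleen, and its interval included equal levels. Markers of megakaryocytes and platelets summed to 414 CPM in marrow and 92.2 CPM in spleen, with 7 of 10 higher in marrow and 0 higher in spleen. Their part in the Serpine2 difference was not tested.

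Of 16 measured proteases that serpins inhibit, 8 were higher in marrow, where 14.1% of all measured genes were, and 3 in spleen, where 14.6% were, and the median on the log2 scale was 1.06. Of those 8, Elane, Prtn3, Ctsg, Prss34 and Mcpt8 also stand in the marker lists of neutrophil precursors or of eosinophils, basophils and mast cells, and the other 3 were F10, Plau and Plg. The 7 markers of eosinophils, basophils and mast cells summed to 2381 CPM in marrow and 43.0 CPM in spleen, each at least 2-fold higher in marrow, and the part of such cells was not tested. Prss34 and Mcpt8, serine proteases of basophils, were at 1008 and 378 CPM in marrow and 14.7 and 7.09 CPM in spleen. F10, the zymogen of coagulation factor X, was at 56.6 CPM in marrow and 7.09 CPM in spleen, a ratio of 7.97 (6.10 to 10.6). Plau, or urokinase, was at 23.6 CPM in marrow and 6.15 CPM in spleen, a ratio of 3.84 (2.83 to 5.30), in the same direction as its inhibitor Serpine2. Plg, or plasminogen, had 16 reads in marrow and 0 in spleen, at least 4.80-fold higher in marrow against the floor of 3 reads, with a counting interval that began at 3.47. Ctss, the cathepsin that trims the invariant chain, was at 161 CPM in marrow and 537 CPM in spleen, and Gzma at 18.8 CPM in marrow and 85.5 CPM in spleen. Cma1, a mast cell chymase, had 6 reads in marrow and 26 in spleen.

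Regulators of ADAM sheddases went both ways, with 2 of 13 higher in marrow, 5 higher in spleen and a median of -0.08 on the log2 scale. Over all measured genes 14.1% were higher in marrow and 14.6% in spleen, so the marrow count was near that share. Rhbdf2, the iRhom that carries Adam17 to the surface of immune cells, was at 43.5 CPM in marrow and 90.1 CPM in spleen, 2.07-fold higher in spleen (1.83 to 2.34). Its relative Rhbdf1 was at 1.59 CPM in marrow and 10.4 CPM in spleen. Frmd8, which stabilises the iRhom complex, differed little at 136 CPM in marrow and 139 CPM in spleen. Among tetraspanins that escort Adam10, Tspan5 was 2.57-fold higher in marrow at 47.6 CPM in marrow and 18.6 CPM in spleen. Tspan33 and Tspan15 were higher in spleen, at 10.2 and 0.744 CPM in marrow and 29.6 and 8.04 CPM in spleen. Tspan14 lay within 2-fold at 139 CPM in marrow and 102 CPM in spleen. Reck, a membrane-anchored MMP inhibitor, was at 17.6 CPM in marrow and 5.79 CPM in spleen, a ratio of 3.05 (2.20 to 4.28). Adamdec1, a secreted ADAM-like protein of macrophages and dendritic cells that the naming rule does not take, was at 1.38 CPM in marrow and 18.4 CPM in spleen, 13.3-fold higher in spleen (7.58 to 25.6). Bsg, an inducer of MMPs, was within 2-fold at 193 CPM in marrow and 121 CPM in spleen.

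Shed substrates were within 2-fold in 14 of 25 cases, with 3 higher in marrow, 8 higher in spleen and a median of -0.55 on the log2 scale. The marrow count was near the share over all measured genes, which was 14.1% for marrow and 14.6% for spleen. Fcer2a, the low-affinity IgE receptor that Adam10 cleaves, was at 4.47 CPM in marrow and 317 CPM in spleen, 71.1-fold higher in spleen. It is a B cell marker. Notch2 was at 156 CPM in marrow and 401 CPM in spleen, while Notch1 was nearly equal at 132 CPM in marrow and 123 CPM in spleen. Cd40, Mertk, Icam1, Cxcl16 and Jag1 were higher in spleen, at 4.57, 4.04, 38.1, 6.59 and 3.51 CPM in marrow and 67.5, 27.1, 169, 28.0 and 14.8 CPM in spleen. Il1r2, the interleukin-1 decoy receptor, App, the amyloid precursor, and Tnfrsf1a, a receptor of tumour necrosis factor, were higher in marrow, at 27.3, 328 and 146 CPM in marrow against 6.15, 102 and 67.0 CPM in spleen. Tnf itself was at 22.3 CPM in marrow and 29.3 CPM in spleen.

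Other inhibitors were mostly within 2-fold (6 of 9, with 1 higher in marrow and 2 in spleen, median log2 ratio -0.13). For a list of 9 genes these counts were near the shares over all measured genes, 14.1% for marrow and 14.6% for spleen. Cst7, the leukocyte cystatin, was at 105 CPM in marrow and 15.3 CPM in spleen, a ratio of 6.86 (5.70 to 8.31), whereas Cst3, the general cystatin, was at 315 CPM in marrow and 507 CPM in spleen. Spint1, an inhibitor of hepatocyte growth factor activator, had 12 reads in marrow and 263 in spleen. The aminopeptidase Anpep was at 7.87 CPM in marrow and 116 CPM in spleen. Plaur, the urokinase receptor, was within 2-fold at 65.7 CPM in marrow and 50.5 CPM in spleen, with 618 reads in marrow and 427 in spleen.

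**Figure D4:**
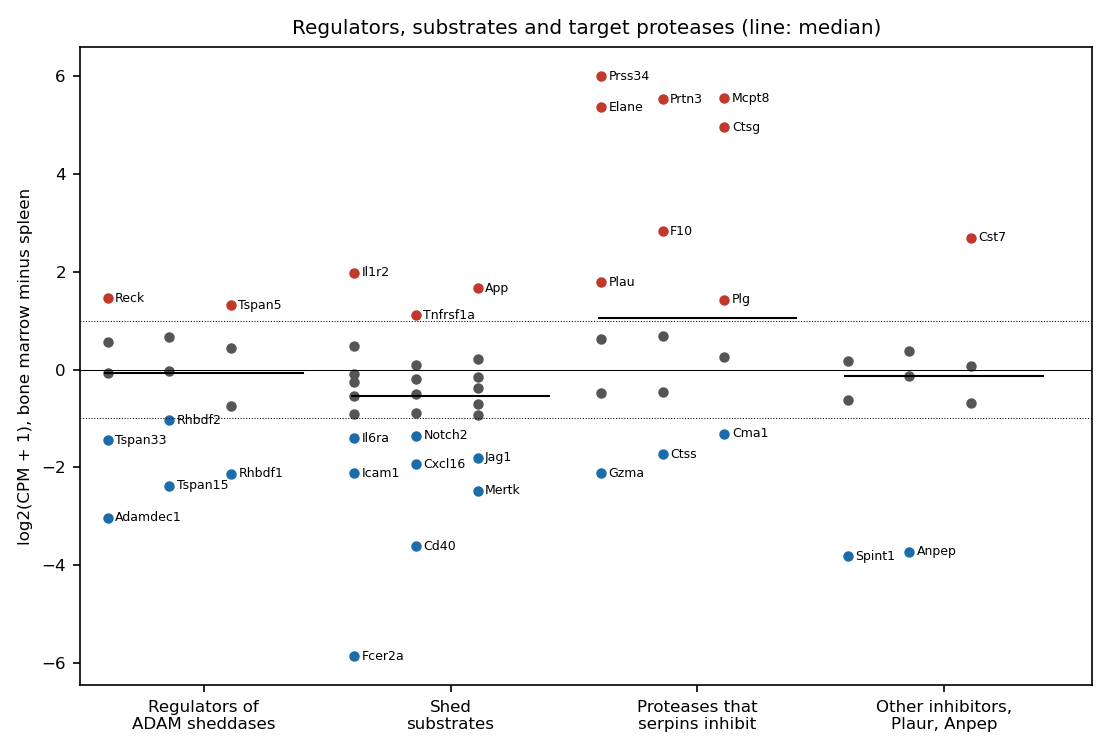
Difference in log2(CPM + 1), marrow minus spleen (y axis), for measured genes of 4 lists of regulators, substrates, target proteases and other inhibitors (x axis). Horizontal bars are list medians, dotted lines mark 2-fold and named points lie past it; Prss34, Mcpt8, Prtn3, Elane and Ctsg stand highest and Fcer2a lowest.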

How the data were processed

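RNA was extracted from sorted cells and made into Illumina libraries, per the labels' protocols. The authors deposited a gene table per library with counts of uniquely placed reads, gene length, the percent of the length covered and RPKM, per the file headers. The deposited RPKM values, recomputed from counts, lengths and header totals, differed by at most 6.74e-06 percent. The sources used here name no aligner, counting program, genome build or strand setting. Tables were joined on Entrez identifier, and a gene missing from a table was given 0 reads. All 88 members matched the RefSeq table (GRCm38.p6) under the deposited symbol, and 39 of the 50 had a promoter entry.

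Counts were scaled to CPM with TMM factors (0.977 for bone marrow, 1.02 for spleen; edgeR 4.0.16, R 4.3.3). The log2 ratio of a gene is its log2(CPM + 1) in bone marrow minus that in spleen, a scale that shrinks the ratios of low genes. Folds are ratios of CPM with conditional binomial (Clopper-Pearson) intervals, and levels have Poisson intervals. Both cover counting error only. They may be too narrow even for that, since reads copied by PCR and lacking molecular identifiers cannot stand for single molecules. A count of 0 allows 3 reads, which is 0.319 CPM in bone marrow, against 0.355 CPM in spleen. Members called, zero in 1 library, or among the 3 with the highest RPKM of their family were named. Partner genes named were those called or the 2 most abundant not called, with others chosen after their values were seen. Members, lists and rules were chosen with earlier results of these data known. Checks on Poisson counts simulated for bone marrow against spleen (12765 genes over the floor) called 90% of genes with a simulated log2 fold of 1.5, 94% of those with -1.5 and 0.0398% of unchanged genes. The simulated counts held counting error only, with no variation between animals, sorts or library preparations. These rates therefore do not give the share of false calls between the 2 real libraries. DESeq2 1.42.0 size factors were one alternative.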

Additional observations from a re-analysis of the deposited data

How the results depend on the processing

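With 50 members the counts were 12 higher in marrow and 14 in spleen. In the same order of tissues, with DESeq2 size factors they were 12 and 14, with library totals alone 12 and 15, with a pseudocount of 0.1 15 and 18, with the deposited RPKM 11 and 11, and with no floor 12 and 14 among 88 genes. The spleen count moved by more than 1.5 times with a pseudocount of 5 (8 and 9), the marrow count with a floor of 10 CPM (7 and 11, among 28 members) and both counts with a 4-fold rule (6 and 6). Fewer members tested, or a stricter rule, make these counts smaller by construction. The share called over all genes moved too, from 14.1% for marrow and 14.6% for spleen in the main setting. In that order it was 14.2% and 14.5% with DESeq2 size factors and 13.2% and 15.7% with library totals. It was 16.1% and 17.2% with the lower pseudocount, 9.59% and 9.33% with the higher, and 10.6% and 12.4% with RPKM. With no floor it was 11.2% and 11.6%, with 10 CPM 13.7% and 13.3%, and with the 4-fold rule 4.42% and 4.09%. The members' median log2 ratio was -0.42 and ran from -0.50 to -0.13 over the alternatives. In the 6 alternatives that kept the 50 members, no called member changed sign; the 4-fold rule alters only the call. A pseudocount of 5 took 9 members below the call and the deposited RPKM 4, while a pseudocount of 0.1 added 7 and library totals added 1, Mmp23. Counts under 10 reads in marrow limit the comparison of Adam12, Adam28, Adamts13, Adamtsl2, Mmp23 and Serpinb2. Spleen counts under 10 reads do so for Adamtsl5, Adamts7, Mmp15, Serpinh1, Mmp2, Mmp28 and Timp3. The sizes of the folds of Adam23, Mmp12, Adam6b and Serpinb7 also rest on fewer than 10 reads in marrow. No paired analysis was possible because each tissue has 1 library.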

Other observations

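The 38 members below 10 reads in both libraries held several genes that stand for a cell type or tissue. Serpinc1, or antithrombin, had 2 reads in marrow and 9 in spleen, and Serping1, the complement inhibitor, had 7 reads in marrow and 1 in spleen. Mmp13, a collagenase of bone and cartilage, had 9 reads in marrow and 7 in spleen. Adamts1, Adamts5, Adamts12 and Adamts15 had 2, 5, 4 and 2 reads in marrow and 0 in spleen. Serpinb1b and Serpinb1c, copies of Serpinb1a, had 0 reads in marrow and 6 and 4 in spleen, against 5567 reads in marrow and 1034 in spleen for Serpinb1a. RefSeq lists 148 protein-coding genes under the names of the rule, of which 61 had no read in either library.

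The deposited coverage shows how the few reads of low members were spread. Adamts2 had 13 reads in each library, covering 417 bases in marrow and 179 bases in spleen. Genes of 2000 bases or more with 13 reads covered a median of 552 bases in marrow and 544 in spleen, with 5th percentiles of 341 bases in marrow and 183 in spleen. The 4 reads of Adam28 in marrow covered 53.1 bases, and its 13 reads in spleen 363 bases. The 13 reads of Adam6b in spleen covered 579 bases.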
